A study of Mus musculus with 47 samples.

Results

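The 41 genes described here make the machinery that copies the genome in S phase, and were taken from a list of replication, origin licensing and nucleotide supply genes by matching their symbols to the RefSeq names of 3′ UTRs. All 41 were found among 18850 genes with an mRNA 3′ UTR, through 62 of 28190 RefSeq transcripts, and each gene was represented by its transcript with most reads. They comprise 11 subunits of the replicative helicase (Mcm2, Mcm3, Mcm4, Mcm5, Mcm6, Mcm7, Cdc45 and Gins1 to Gins4), 9 genes of origin licensing and firing (Orc1, Orc2, Orc6, Cdc6, Cdt1, Gmnn, Mcm10, Cdc7 and Dbf4), 6 of the sliding clamp and its loader (Pcna and Rfc1 to Rfc5), 5 of the polymerases and primase (Pola1, Prim1, Prim2, Pold1 and Pole), 4 of single-strand binding and Okazaki fragment maturation (Rpa1, Rpa2, Fen1 and Lig1), 3 of nucleotide supply (Rrm1, Rrm2 and Tyms) and 3 regulators of S phase entry (Ccne1, Ccne2 and E2f1).

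The libraries came from wild-type P19 cells, a male mouse embryonal carcinoma line that turns into neurons when it is given retinoic acid. Undifferentiated cells (D0) were labeled with 20 µM 4-thiouridine (4sU), a uridine analog that new RNA incorporates, and cells differentiated for 6 days with 500 nM retinoic acid (D6) were labeled with 500 µM, so that 4sU dose and state cannot be told apart. In the catabolic assay cells were labeled for 15 h, after which 4sU was washed out and replaced by UTP, and in the anabolic assay 4sU was added and cells were collected as label entered the RNA. In SLAM-seq, alkylated 4sU is read as C where the genome has T, so each library gives both the number of reads on a 3′ UTR and the share of its covered T positions that were converted, here called the label. There were 47 libraries, 24 at D0 and 23 at D6, with 3 per state, assay and time except the D6 catabolic group at 6 h, which had 2. Hours are those of the study's methods (0, 3, 6 and 9 h), and the labels name the 3 h and 6 h samples as times 1 and 3. RNA was taken from whole cultures with no sorting, so fewer cells of a type and less RNA per cell cannot be told apart. The labels do not say whether the libraries of a group came from separate cultures, and p-values then measure only the spread between these samples, which may be technical.

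Before S phase, the origin recognition complex, Cdc6 and Cdt1 load the MCM ring onto DNA, and geminin (Gmnn) holds Cdt1 back once licensing is complete. The kinase Cdc7 with its activator Dbf4, helped by Mcm10, then joins Cdc45 and GINS to the ring to form the active CMG helicase, behind which primase and the polymerases copy the strands, RFC loads the PCNA clamp, RPA covers single-stranded DNA, and Fen1 and Lig1 trim and seal Okazaki fragments. Many of these genes are transcribed at the start of S phase under E2F factors, and neurons, which no longer divide, are known to express little of them.

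Promoters of 6 of the genes are shown because E2F factors bind short words with the core of TTTCCCGC and TTTGGCGC. Promoter windows from 250 bases before to 50 after the annotated start were matched by symbol from RefSeq (GRCm38.p6) for 32 of the 41 genes. TTTCCCGC, TTTCGCGC, TTTGGCGC and TTTGCCGC were searched on both strands. One or more of these words stood in a window of 12 of the 32 genes (37.5%), which were Mcm3, Mcm5, Mcm6, Mcm7, Gins3, Orc1, Cdc6, Cdt1, Rfc3, Pola1, Pold1 and Lig1. Of all 32851 windows of that length, 2.26% held one. Counted by gene, a window with a word belonged to 2.6% of 27025 genes and to 4.67% of 10576 genes tested for reads. The 30 bases around the words are given for 6 genes whose reads were lower at D6, each read 5′ to 3′ along the gene's strand, with the words in capitals.
Mcm3, chr1:20820275-20820304, minus strand: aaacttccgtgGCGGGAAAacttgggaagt
Mcm3, chr1:20820263-20820292, minus strand: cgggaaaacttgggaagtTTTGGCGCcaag
Mcm5, chr8:75109347-75109376, plus strand: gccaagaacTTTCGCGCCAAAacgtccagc
Mcm6, chr1:128359795-128359824, minus strand: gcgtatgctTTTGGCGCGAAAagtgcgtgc
Mcm6, chr1:128359734-128359763, minus strand: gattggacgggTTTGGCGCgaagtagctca
Mcm7, chr5:138172030-138172059, minus strand: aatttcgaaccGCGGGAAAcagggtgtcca
Mcm7, chr5:138171849-138171878, minus strand: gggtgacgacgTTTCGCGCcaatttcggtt
Lig1, chr7:13278841-13278870, plus strand: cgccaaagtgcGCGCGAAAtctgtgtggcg
Cdt1, chr8:122568035-122568064, plus strand: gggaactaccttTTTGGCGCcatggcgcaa
The capitals in Mcm5 and in the first Mcm6 window are 2 overlapping words, one on each strand. The 2 windows of Mcm3 overlap each other. A word in the window is a match of letters, and binding was not measured. The 6 genes shown were chosen by their reads, and Mcm6 and Cdt1 were called lower after 15 h in 4sU but not without it. Gins3, Orc1, Cdc6, Rfc3, Pola1 and Pold1 also held a word and were called in neither of these comparisons. Over all 47 libraries Rfc3 was again not called, while the others were. Whether a word goes with lower reads was not tested.

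Libraries held 3447888 to 11677046 reads on 3′ UTRs at D0 and 1489528 to 7930149 at D6. The summed level of 12 neuron markers was 1036 to 1441 CPM (reads scaled to the reads on mRNA 3′ UTRs of the library) over the D0 libraries and 9682 to 13639.9 over the D6 libraries, and that of 12 pluripotency markers was 2285 to 3760.0 and 417 to 1012, with Nanog at 0 in all 3 D6 libraries without 4sU and Sox2, also a gene of neural progenitors, at 830.1 ± 157 CPM (SD, n = 3) there against 1031 ± 399. The sum of 9 neural progenitor markers was 533 to 1452 CPM at D0 and 1483 to 3376 at D6. Of 6 glial markers, Mbp was at 29.7 ± 22.2 CPM at D0 and 37.3 ± 13.3 CPM at D6 without 4sU (SD, n = 3). Gfap, a marker of astrocytes, was at 0.304 and 0 CPM, and Aqp4, Aldh1l1, Olig2 and S100b were at 0 in both states. D0 libraries 26 (15 h in 4sU), 56 (no 4sU) and 72 (9 h in 4sU) deviated from the other D0 libraries over the same genes (correlation of deviations 0.564 to 0.65, against −0.245 to 0.359 among the others), and calls that rest on them are also given without them. The SD over genes of a library's log2 deviation had a median of 0.356 at D0 and 0.885 at D6.

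Summed over the 41 genes, D6 libraries had less replication mRNA than D0 libraries at every time point of both assays. The sum was 5833 to 6809.6 CPM in the 24 D0 libraries, with a mean of 6455 ± 232 (SD), and 1807 to 3373 CPM in the 23 D6 libraries, with a mean of 2821 ± 373. No D6 library reached the lowest D0 library.

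**Figure D1:**
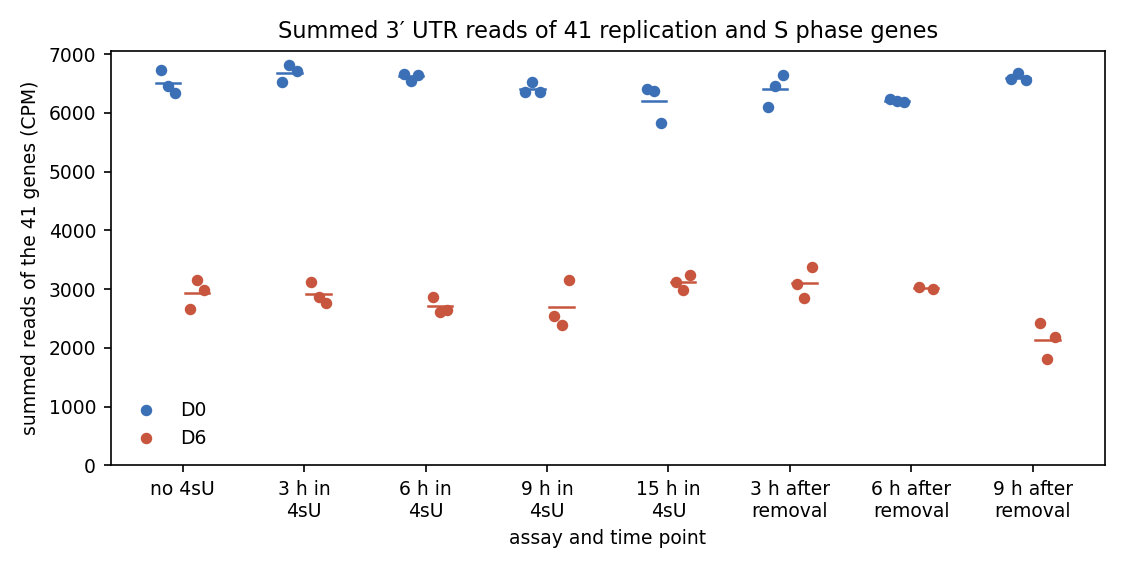
Summed CPM of the 41 genes on the vertical axis, one point per library, by assay and hour on the horizontal axis, with D0 and D6 in separate colours and bars at the group means. The 24 D0 libraries lie between 5833 and 6809.6 CPM and the 23 D6 libraries between 1807 and 3373, lowest 9 h after removal of 4sU.

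The comparison of states without label used the 3 D6 and 3 D0 anabolic libraries at 0 h, with edgeR's quasi-likelihood test and Benjamini-Hochberg adjustment over 10234 genes. At D6 9 of the 41 genes were lower and 0 were higher at an adjusted p under 0.05, against 5.16% of all genes tested called lower and 7.61% called higher. At an unadjusted p under 0.05, 16 of the 41 were lower and 0 higher (11.6% and 13.2% of all genes tested), and DESeq2 also called 0 higher. The median log2 fold change was −1.12 over the 41 genes and −0.02 over all genes, and 39 of the 41 values were below 0. In 20 of the 41 every D6 library lay below every D0 library, as in 17.8% of all genes tested. Without D0 library 56, 10 of the 41 were lower, but Mcm5 (log2 −1.365, adjusted p = 0.05199, edgeR), Mcm10, Rfc2 and Rfc5 did not pass. The count was 1 without D6 library 37, 6 without D6 library 38, 7 without D0 library 57, and 4 without D6 library 39 or D0 library 55.

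In the helicase group 3 of 11 genes fell, all of them MCM subunits, and 0 rose. Mcm3, a subunit of the MCM ring, had 234, 283 and 251 CPM in the D0 libraries and 69.3, 36.5 and 67.9 CPM in the D6 libraries. Its D6 libraries all lay below its D0 libraries, with a log2 fold change of −2.10 ± 0.36 (SE; adjusted p = 0.00343, edgeR), the smallest p of the 41 genes. Mcm5 had 361.5, 368 and 342 CPM at D0 and 136.5, 179.5 and 62.3 CPM at D6, a log2 fold change of −1.44 ± 0.39 (adjusted p = 0.0339). Mcm7 had 625, 804 and 523 CPM at D0 and 278, 321 and 269 CPM at D6, a log2 fold change of −1.12 ± 0.28 (adjusted p = 0.0229). Both were separate between the states in every library. Gins3, a GINS subunit, had the largest fitted difference of the helicase genes and did not pass the test, with 30.4, 116 and 18.3 CPM at D0 and 10.4, 0.613 and 26.6 CPM at D6 (log2 fold change −2.15 ± 1.16, adjusted p = 0.296). Gins1, of the same complex, had the smallest, with 65.1, 45.1 and 44.7 CPM at D0 and 14.5, 48.7 and 54.9 CPM at D6 (log2 fold change −0.32). The libraries of the states overlapped for both GINS genes.

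Of the 9 licensing and firing genes 1 fell and 0 rose. Mcm10, which helps to start the assembled helicase, had 77.1, 128 and 88.0 CPM at D0 and 18.1, 19.9 and 1.90 CPM at D6, a log2 fold change of −2.83 ± 0.81 (adjusted p = 0.0443, edgeR). Without D0 library 56 its log2 fold change was −2.53 (adjusted p = 0.09585). Orc1, the largest subunit of the origin recognition complex, had 34.4, 54.7 and 51.9 CPM at D0 and 0.242, 0 and 18.5 CPM at D6. No D6 library reached the D0 range of Orc1, yet its D6 values were spread so widely that the difference did not pass the test (log2 fold change −2.86 ± 1.52, adjusted p = 0.289). Orc6 had 72.7, 0.795 and 60.4 CPM at D0 and 15.95, 10.4 and 66.9 CPM at D6, with the low D0 value in library 56, and a log2 fold change of −0.41. Cdt1, which loads the MCM ring, had 139, 135 and 189 CPM at D0 and 66.7, 77.5 and 81.8 CPM at D6, separate in every library, with a log2 fold change of −0.97 (adjusted p = 0.0919).

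Of the 6 clamp and clamp loader genes 2 fell and 0 rose, both of them loader subunits. Rfc2 had 89.5, 131 and 76.5 CPM at D0 and 23.9, 29.7 and 11.7 CPM at D6, a log2 fold change of −2.14 ± 0.57 (adjusted p = 0.0326, edgeR). Rfc5 had 319, 386 and 196.5 CPM at D0 and 122, 125.0 and 69.2 CPM at D6, a log2 fold change of −1.47 ± 0.38 (adjusted p = 0.0292). Without library 56 neither passed the test, with log2 fold changes of −1.82 for Rfc2 (adjusted p = 0.0883) and −1.18 for Rfc5 (adjusted p = 0.0621). Rfc3, another subunit of the same pentamer, had 113, 77.0 and 131 CPM at D0 and 79.7, 91.3 and 147 CPM at D6 (log2 fold change 0.06), with the states overlapping. Rfc4 had 74.0, 43.95 and 19.6 CPM at D0 and 24.9, 85.8 and 16.1 CPM at D6 (log2 fold change −0.03). The difference between Rfc5 and Rfc3 was not itself tested.

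Of the 4 genes of single-strand binding and Okazaki maturation 3 fell and 0 rose. Lig1, the ligase that seals Okazaki fragments, had 729.9, 1280.2 and 728 CPM at D0, highest in library 56, and 252, 382 and 327 CPM at D6. Its log2 fold change was −1.47 ± 0.33 (adjusted p = 0.0142, edgeR), and the states did not overlap. Rpa2, a subunit of the single-strand binding protein, had 461, 593 and 481 CPM at D0 and 249.6, 234 and 246 CPM at D6 (log2 fold change −1.03 ± 0.26, adjusted p = 0.0248). Rpa1, its largest subunit, had 299.8, 169 and 232 CPM at D0 and 89.2, 95.3 and 127 CPM at D6 (log2 fold change −1.09 ± 0.32, adjusted p = 0.0495). The flap nuclease Fen1 had 232, 71.8 and 247 CPM at D0, lowest in library 56, and 96.7, 130.5 and 147 CPM at D6 (log2 fold change −0.46). Without library 56 the states of Fen1 did not overlap.

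None of the 5 polymerase and primase genes, 3 nucleotide supply genes or 3 regulators passed the test in these 6 libraries. Pold1, the catalytic subunit of polymerase delta, had 59.4, 65.2 and 46.6 CPM at D0 and 14.01, 24.2 and 18.7 CPM at D6, separate in every library, with a log2 fold change of −1.53 (adjusted p = 0.162). Pola1 of polymerase alpha had 35.9, 0.994 and 35.2 CPM at D0 and 9.18, 10.4 and 35.6 CPM at D6 (log2 fold change −0.27). Rrm2, the regulated subunit of ribonucleotide reductase, had 196, 59.7 and 130.1 CPM at D0 and 84.6, 63.7 and 59.8 CPM at D6 (log2 fold change −0.80), and Tyms, thymidylate synthase, had 46.2, 40.4 and 41.3 CPM at D0 and 26.3, 51.8 and 24.7 CPM at D6 (log2 fold change −0.24). Both nucleotide genes overlapped between the states, Rrm2 through library 56 alone. Cyclin E2 (Ccne2) had 7.60, 12.7 and 18.2 CPM at D0 and 0, 0 and 8.54 CPM at D6. E2f1, the activator of S phase genes, had 75.1, 110.4 and 149.6 CPM at D0 and 118, 205 and 114 CPM at D6, overlapping, with a log2 fold change of 0.45 (adjusted p = 0.583).

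**Figure D2:**
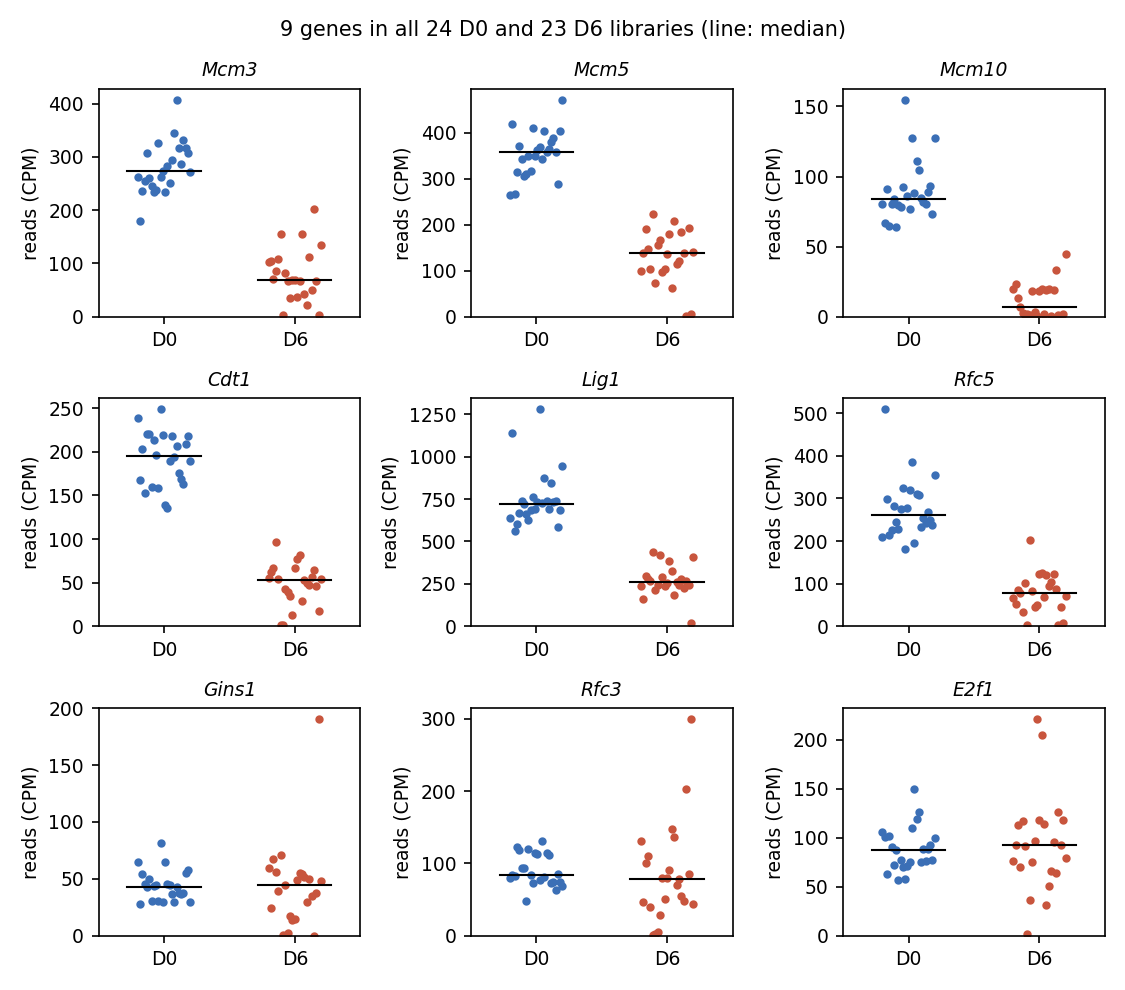
CPM of 9 of the genes (Mcm3, Mcm5, Mcm10, Cdt1, Lig1, Rfc5, Gins1, Rfc3 and E2f1) in every library, one panel per gene with its own vertical axis, D0 and D6 in separate columns and a line at the median. D6 points lie below all D0 points for Mcm5, Mcm10, Cdt1 and Lig1, and the states overlap for Gins1, Rfc3 and E2f1.

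The comparison was repeated in 6 other libraries, collected after 15 h in 4sU. Of 40 genes tested, 11 were lower at D6 and 0 higher (edgeR, adjusted p under 0.05), against 6.84% of 9978 genes called lower and 7.66% called higher. DESeq2 also called 0 higher, and at an unadjusted p under 0.05 14 were lower and 0 higher (12.8% and 13.8% of all genes tested). Cdc7 did not pass the filter on low counts and was not tested. It had 0 reads in the 3 D0 libraries and 61, 0 and 1 reads at D6. The median log2 fold change was −1.08 over the 40 genes and 0.04 over all genes, and in 14 of the 40 every D6 library lay below every D0 library, as in 16.8% of all genes. Both sets of libraries called 7 genes, 77.8% of the 9 without 4sU and 63.6% of the 11 after 15 h, namely Mcm3, Mcm5, Mcm10, Rfc5, Rpa1, Rpa2 and Lig1. The others called after 15 h were Mcm2, Mcm6, Cdt1 and Rfc1.

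Rfc5 had 208.5, 509 and 299 CPM at D0 after 15 h in 4sU and 67.3, 52.8 and 86.0 CPM at D6, a log2 fold change of −2.34 (adjusted p = 0.0029, edgeR). Cdt1 had 239, 167.5 and 203 CPM at D0 and 55.4, 61.8 and 67.2 CPM at D6, a log2 fold change of −1.73 (adjusted p = 0.0042). Lig1 had 640.0, 1139.8 and 564 CPM at D0, highest in library 26, and 239, 159.8 and 295.5 CPM at D6, a log2 fold change of −1.79 (adjusted p = 0.006). In these 3 genes no D6 library reached the D0 range in either set of libraries. Mcm2 and Mcm6, both subunits of the MCM ring, had log2 fold changes of −1.10 (adjusted p = 0.027) and −1.26 (adjusted p = 0.0164), and Rfc1, the large subunit of the clamp loader, one of −1.78 (adjusted p = 0.0321, edgeR). Without library 26, 9 of the 40 genes were lower, and Mcm5, Mcm10 and Rfc1 did not pass. The count was 3 without D6 library 07, 5 without D6 library 09 or D0 library 27, and 6 without D0 library 25.

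No gene of the 41 was called for a response to the 4sU label itself. In one fit over the 12 libraries with 15 h or no 4sU, edgeR called 4 of 11205 genes at D0 (0.0357%), 4 at D6 (0.0357%) and 1 for the difference between the states (0.00892%), and 0 of the 41 genes in any of them. Unadjusted p was under 0.05 for 1, 0 and 1 of the 41 (3.99, 5.75 and 4.76% of all genes), each time Cdc7, and DESeq2 called 0 in each. These comparisons share libraries with both comparisons of the states.

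A comparison over all 47 libraries, added after the data were seen, set the mean of the 8 D6 groups against the mean of the 8 D0 groups. By edgeR 34 of the 41 genes fell and 0 rose, against 28.8% of 13250 genes called lower and 16.2% called higher. The median log2 fold change was −1.25 over the 41 genes and −0.41 over all genes, a difference of −0.84. All 41 values were below 0, while 38.7% of all genes tested were above 0. The 7 that did not pass were Gins1, Orc6, Cdc7, Rfc3, Tyms, Ccne2 and E2f1, of which Cdc7 could not be fitted with a finite error. DESeq2 called 34 lower and 0 higher, and 0 were higher at an unadjusted p under 0.05. Without D0 libraries 26, 56 and 72, and without the 6 D6 libraries that deviated most, 34 were lower in each case.

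By role, 10 of 11 helicase genes, 7 of 9 licensing and firing genes, 5 of 6 clamp genes, 5 of 5 polymerase and primase genes, 4 of 4 genes of single-strand binding and Okazaki maturation, 2 of 3 nucleotide supply genes and 1 of 3 regulators fell. This fit took every library as independent, so its p-values carry the limit on separate cultures given above. Orc1 had the largest change, from a median of 46.2 CPM (range 21.0 to 73.8) over the D0 libraries to 0.354 CPM (0 to 45.1) at D6, with a log2 fold change of −4.89 ± 0.65 (adjusted p = 3.474e-09, edgeR). That fold change averages the groups on the log scale. The mean of Orc1 was 47.9 CPM at D0 and 4.99 CPM at D6, a ratio of 9.6. Mcm10 followed, from 84.2 CPM (63.7 to 155) to 6.99 CPM (0.268 to 44.8), with a log2 fold change of −3.27 ± 0.40 (adjusted p = 3.475e-10). Pold1 went from 53 CPM (35.9 to 106) to 15.1 CPM (0 to 43.1), a log2 fold change of −2.59 ± 0.41 (adjusted p = 2.535e-07). Below the lowest D0 library lay 22 of the 23 D6 libraries for Orc1, 23 for Mcm10 and 20 for Pold1.

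Over all 47 libraries 4 genes, Cdt1, Lig1, Mcm10 and Mcm5, had every D6 library below every D0 library, as did 2.02% of all genes tested. Cdt1 ranged from 135 to 249 CPM at D0 and from 1.495 to 96.3 CPM at D6. Mcm5 ranged from 264 to 471 CPM at D0 and from 1.84 to 224.1 CPM at D6. Lig1, highest at D0 in libraries 26 and 56, ranged from 564 to 1280.2 CPM there and from 18.9 to 435 CPM at D6. Cyclin E1 (Ccne1), the partner of Cdk2 at S phase entry, had a median of 116.5 CPM at D0 and 17.6 CPM at D6, with a log2 fold change of −2.53 ± 0.37 (adjusted p = 6.193e-08, edgeR), while its paralog Ccne2 had medians of 13.1 and 5.65 CPM and did not pass (log2 fold change −0.87, adjusted p = 0.266). Geminin (Gmnn) had medians of 74.8 and 20.3 CPM, with a log2 fold change of −2.29 ± 0.36 (adjusted p = 2.395e-07, edgeR). Pcna, the clamp itself, had medians of 103 and 57.5 CPM and a smaller change of −0.67 ± 0.24 (adjusted p = 0.0167), which did not pass without the catabolic libraries at 9 h (adjusted p = 0.192). E2f1 had medians of 87.9 and 93.0 CPM, and its log2 fold change was −0.09 ± 0.20.

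**Figure D3:**
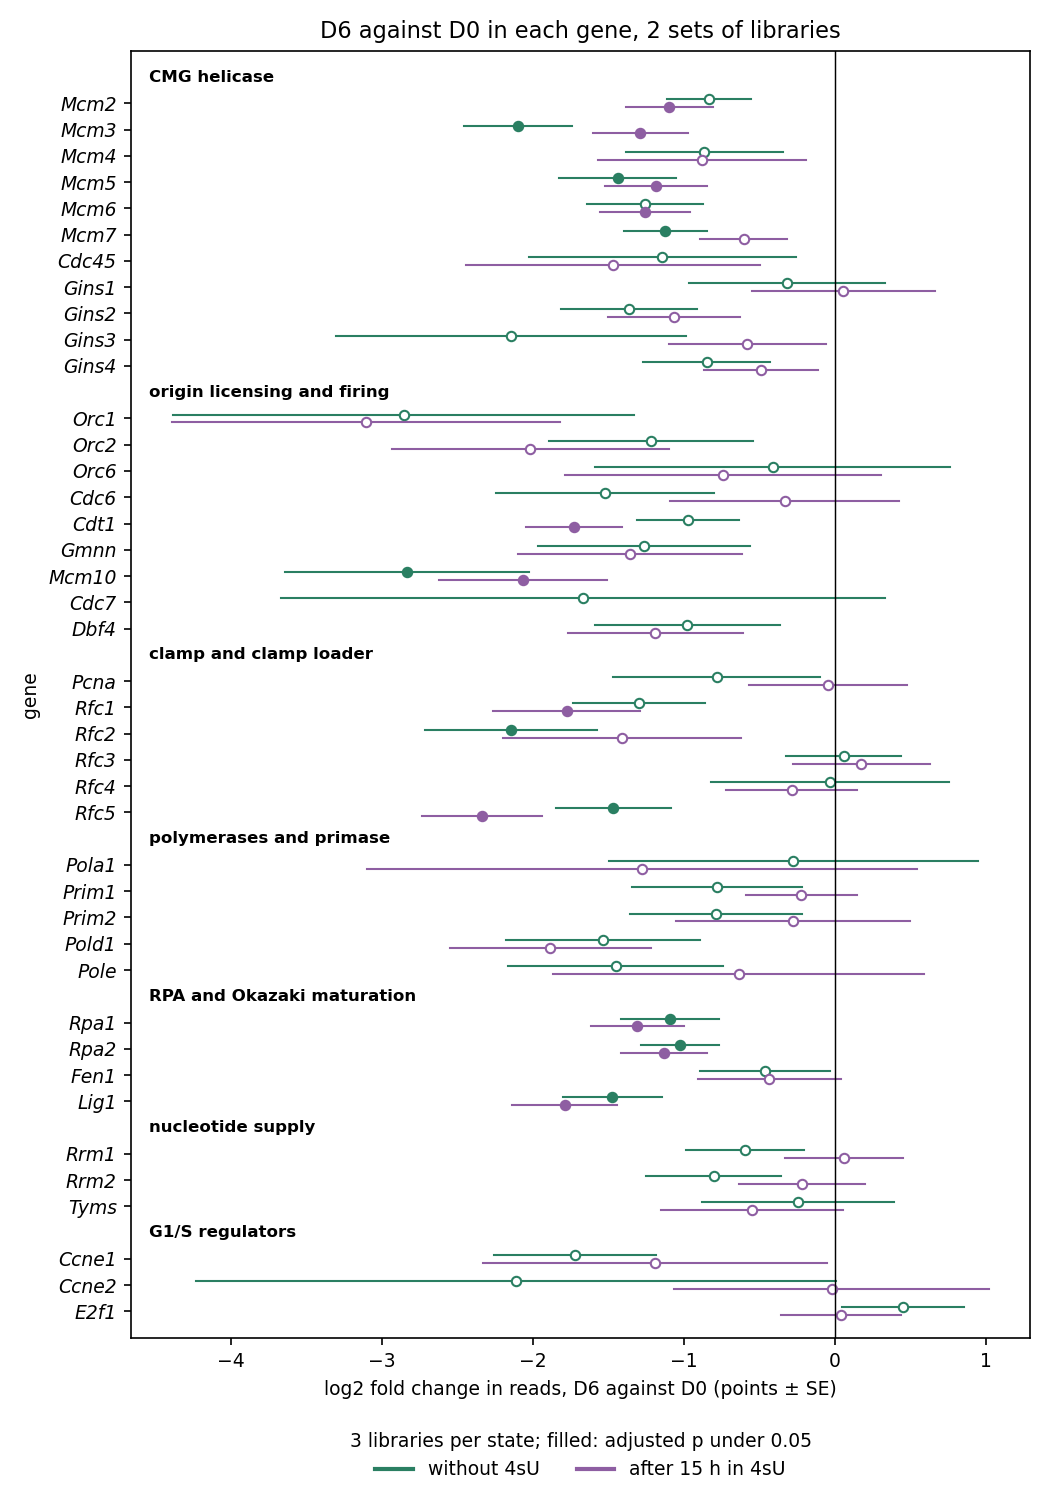
Log2 fold change of each of the 41 genes, D6 against D0, with bars of 1 standard error, grouped by role, for the 6 libraries without 4sU and the 6 after 15 h in 4sU, filled where the adjusted p was under 0.05. Without 4sU 39 of 41 values are below 0, and Orc1 and Mcm10 lie lowest, the former with an open symbol.

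The sum of the 41 genes also differed within D6 over the chase, a comparison added after the data were seen. At D6 it was 2987, 3128 and 3242 CPM at removal of 4sU and 1807 to 2425 CPM 9 h later, which is 68.6% of the mean at removal (57.9 to 77.8%). At D0 it went from a mean of 6205 CPM to 6554 to 6678 CPM, 106.4% (105.6 to 107.6%). By role at D6, 4 sums were lower 9 h later without overlap: the helicase sum went from 1159 to 1384 CPM down to 549.8 to 766 CPM, that of the licensing genes from 219 to 393 down to 145 to 215 CPM, that of the clamp genes from 346 to 426 CPM down to 179 to 250 CPM, and that of nucleotide supply from 188 to 299.8 down to 40.5 to 123 CPM. The other 3 overlapped between the times, with 138 to 195 and then 153 to 174 CPM for the polymerases, 607 to 704 and then 569 to 848 CPM for single-strand binding and Okazaki maturation, and 98.7 to 189 and then 91.8 to 243 CPM for the regulators. The sum of 35 other replication factors was 1821 to 2015 CPM and then 1772.5 to 2046.5 CPM. Other lists of genes moved without overlap in both directions. That of 23 other nucleotide supply genes fell from 3418 to 3622 CPM down to 2478 to 2874 CPM. The list of E2F, RB and S phase entry control fell from 2974 to 3482 CPM down to 2316 to 2910 CPM. The checkpoint and fork repair list rose from 499 to 661 CPM up to 693 to 776 CPM.

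Among single genes, Rrm2 had 143, 58.5 and 104 CPM at removal of 4sU at D6 and 19.9, 10.5 and 26.2 CPM 9 h later. It was the one gene of the 41 called by edgeR at D6 (log2 fold change −2.26 ± 0.47, adjusted p = 0.0383), where 0.42% of 11200 genes were called. At D0 Rrm2 had 154, 86.2 and 117.5 CPM and then 157, 95.4 and 145 CPM, so the states moved apart, but the difference between the states did not pass (log2 −2.40 ± 0.64, adjusted p = 0.163). The call at D6 was lost without D6 library 07 (adjusted p = 0.112), 09 (0.0674), 16 (0.0593) or 17 (0.0654). At D0 0.0446% of genes were called and 0 of the 41 (1 at an unadjusted p under 0.05, against 4.61% of all genes, and 1 higher by DESeq2). For the difference between the states edgeR called 0% of genes and 0 of the 41, with 7 lower at an unadjusted p under 0.05, against 5.53% of all genes, and 1 by DESeq2.

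At D6 10 of the 41 genes were lower at an unadjusted p under 0.05, against 6.49% of all genes tested, among them Pcna, with 99.9, 67.1 and 74.0 CPM at removal and 25.8, 22.8 and 11.8 CPM 9 h later (log2 fold change −1.85, adjusted p = 0.11), and Gmnn, with 31.8, 57.5 and 7.08 CPM and then 8.09, 1.87 and 6.43 CPM (log2 fold change −2.37, adjusted p = 0.161). The median log2 fold change was −0.65 over the 41 genes and 0 over all genes, and 29 of 41 were below 0. Lig1 had 419.6, 291 and 236 CPM 9 h later, against 239, 159.8 and 295.5 CPM, with the times overlapping. Over the same hours at D6 the sum of the neural progenitor markers went from 2902 to 3339 CPM down to 1984.5 to 2249.9 CPM, and that of the neuron markers from 11122 to 11345 CPM to 9682 to 11284 CPM. The part of these markers in the change of the replication genes was not tested.

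The label of the 41 genes, pooled as conversions over covered T positions, followed the assay in both states. In libraries that had no 4sU the pooled rate was 0.268% ± 0.079 at D0 and 0.207% ± 0.053 at D6 (SD over 3 libraries each), a background of T to C differences. After 15 h in 4sU it was 1.65% ± 0.17 at D0 and 5.10% ± 0.24 at D6, and doses differed between them. The rate 3 h after 4sU was added was 0.210 to 0.262% at D0, against 0.199 to 0.355% without 4sU. Without library 56 the range without 4sU was 0.199 to 0.251%, which 1 of the 3 libraries at 3 h exceeded.

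**Figure D4:**
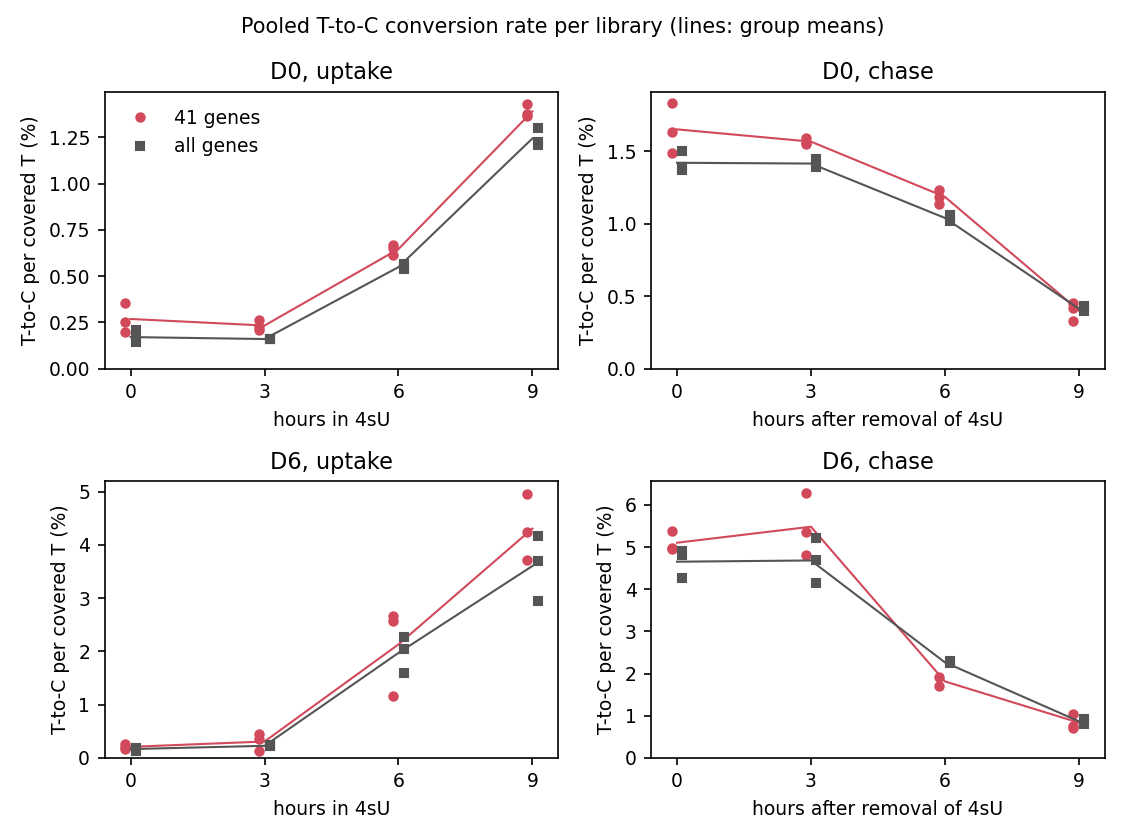
Pooled label of the 41 genes, in percent of covered T positions converted, against hours after removal (catabolic) or addition (anabolic) of 4sU, for D0 and D6, one point per library and lines through group means, with all genes for comparison. Label stays near its starting rate at 3 h and falls by 9 h, and in the anabolic assay stays near the level without 4sU at 3 h and rises by 9 h.

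At 9 h after removal, 24.3% ± 3.9 of the 15 h rate of the 41 genes was left at D0, against 29.1% ± 1.1 over all genes, and 16.4% ± 3.3 at D6, against 18.6% ± 1.3. Once the rate without 4sU was subtracted, the values were 9.64% ± 4.66 for the 41 genes and 19.5% ± 1.3 for all genes at D0, and 12.8% ± 3.5 and 15.7% ± 1.4 at D6, so that the order of the states for the 41 genes turned. Without D0 libraries 26, 56 and 72 the subtracted values at D0 were 13.2% ± 4.8 for the 41 genes and 21.3% ± 1.3 for all genes. After 9 h in 4sU the 41 genes had reached 84.2% ± 2.1 of the 15 h rate at D0 (all genes 87.6% ± 3.5) and 84.4% ± 12.2 at D6 (all genes 77.5% ± 13.1). Without D0 libraries 26, 56 and 72 the D0 shares were 89.7% for the 41 genes and 87.99% for all genes, which turns their order. These pooled shares are descriptions with no test.

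By role at D0, the share of label left at 9 h ran from 9.29% ± 4.26 (SD, n = 3) for the regulators and 12.8% ± 2.9 for the licensing and firing genes to 25.02% ± 4.1 for the helicase, 24.8% ± 1.4 for the clamp genes, 29.8% ± 9.9 for single-strand binding and Okazaki maturation, 31.6% ± 3.3 for the polymerases and 31.7% ± 8.7 for nucleotide supply. Every library of the regulators and of the licensing genes lay below every library of the helicase and clamp genes, at 15.9% or less against 22.3% or more. The rate without 4sU was not subtracted from any share by role, and that rate is not given here by role. With all roles pooled at D0, its subtraction lowered the mean share left at 9 h from 24.3% to 9.64%. Whether the order of the roles comes from label or from this background was not tested. Uptake by 9 h was 117% for the regulators, 103.4% for nucleotide supply and 102% for the licensing genes, against 83.4% for single-strand binding and Okazaki maturation, 79.7% for the helicase, 78.7% for the polymerases and 72.4% for the clamp genes. Nucleotide supply was thus high in both shares. At D6 the shares left were 5.22% ± 3.42 for the regulators, 13.1% for both the licensing and the helicase genes, 9.96% for the clamp genes, 16.5% for the polymerases, 24.7% for single-strand binding and Okazaki maturation, and 24.1% ± 31.9 for nucleotide supply.

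**Figure D5:**
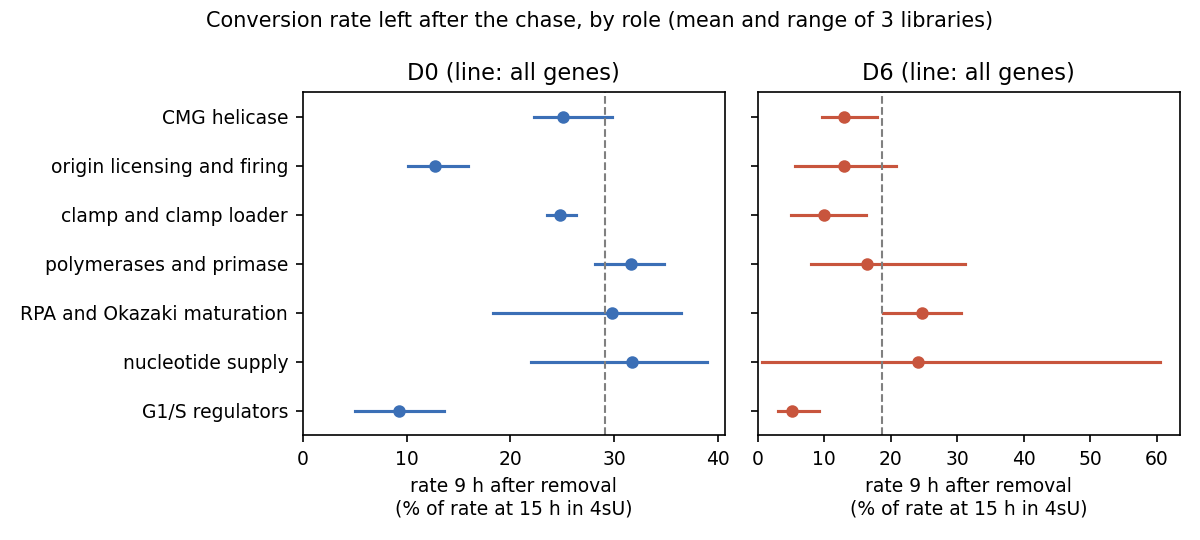
Share of the 15 h label left 9 h after removal of 4sU, in percent, for each role group, as the mean and range of 3 libraries at D0 and D6, with a dashed line for all genes. The rate without 4sU was not subtracted. At D0 the regulators and the licensing genes lie lowest, at 9.29% and 12.8%, and at D6 the nucleotide supply genes spread from 0.631 to 60.4%.

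In tests of single genes, label was taken relative to the median gene of the same library, with one edgeR fit over 47 libraries and 9152 genes, and 0 of the 41 genes were called in any of 7 comparisons. The genes called overall were 0% after 15 h in 4sU (D6 against D0), 0.0437% for label left at D0, 0.164% for label left at D6, 0.0109% for the difference between the states, and 0% for each of the 3 uptake comparisons. The 41 genes had 0, 2, 6, 4, 0, 1 and 1 values at an unadjusted p under 0.05, against 5.22, 14.3, 13.2, 9.44, 4.58, 4.77 and 5.89% of all genes tested, and DESeq2 called 2 for label left at D6, 1 each for uptake at D6 and its difference between the states, and 0 in the others.

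For label left at D0 the 3 genes with the smallest p were Tyms, Cdc6 and Fen1. Fen1 had rates of 1.56, 1.37 and 1.46% after 15 h in 4sU and 0.0444, 0.0264 and 0.124% 9 h after removal (log2 change relative to the median gene −2.16, adjusted p = 0.418, edgeR). Cdc6, the licensing ATPase, had 1.33, 0.573 and 0.666% and then 0.0215, 0 and 0.0142% (log2 −3.76, adjusted p = 0.337). In both genes no library 9 h after removal reached the range at 15 h. Label over all genes also fell, to 29.1% of the 15 h rate at D0, and the share of genes separated in this way was not counted. Tyms had 1.44, 0.0296 and 0% after 15 h and 0.796, 3.29 and 0.236% 9 h later, in libraries with 1531 to 5936 covered T positions, and its libraries overlapped (adjusted p = 0.315).

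At D6 the smallest p for label left belonged to Ccne1, Cdc45 and Mcm10. Cdc45, which joins the MCM ring to GINS, had rates of 11.3, 4.73 and 5.30% after 15 h in 4sU and 0.0403, 0.0641 and 0% 9 h after removal (log2 −4.25, adjusted p = 0.245, edgeR). Ccne1 had 6.77 and 2.66% in the 2 libraries that covered it after 15 h, and 0, 0.0260 and 0.0424% 9 h later (log2 −4.48, adjusted p = 0.243). Mcm10 had 5.01, 4.21 and 10.4% after 15 h and 0 of 2830, 179 and 28 covered positions converted 9 h later, which allows a rate of up to 0.0988% over the 3 libraries, counting error only. The 9 h libraries lay below the 15 h libraries in all 3 genes. Label over all genes fell at D6 too, to 18.6% of the 15 h rate, and the share of genes separated in this way was not counted.

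The difference in label left between the states had its smallest p in Mcm6, Cdc45 and Mcm10. Mcm6 had 2.31, 1.14 and 1.71% after 15 h in 4sU at D0 and 0.465, 1.15 and 0.409% 9 h later, and 5.63, 5.003 and 3.82% at D6 and then 0.0482, 0 and 0.258%. One D0 library 9 h after removal lay within the D0 range before it, while all 3 D6 libraries lay below theirs, and the difference did not pass (log2 −3.62, adjusted p = 0.377, edgeR). Cdc45 at D0 had 3.34, 4.20 and 2.22% and then 0.503, 1.86 and 0.624% (difference log2 −5.05, adjusted p = 0.380). Mcm10 at D0 had 1.13, 1.22 and 1.94% and then 0.146, 0.0088 and 0.362%.

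The smallest p after 15 h in 4sU, D6 against D0, belonged to Gins4 (0.0448, 0.644 and 0.476% at D0, 5.03, 3.45 and 6.91% at D6), Rpa2 (1.956, 2.66 and 2.84% at D0, 6.95, 4.18 and 3.71% at D6) and Tyms (7.57, 4.68 and 5.11% at D6), and none was under 0.05 unadjusted. For uptake by 9 h at D0 they were Gins4 (1.075, 1.79 and 1.24% after 9 h in 4sU), Tyms (1.19, 2.23 and 1.11%) and Pold1 (1.49, 2.42 and 2.655% against 6.46, 2.63 and 5.49% after 15 h). For uptake at D6 and its difference between the states they were Gins3, Cdc6, Mcm10 and Pola1. Gins3 had 2.75, 2.16 and 0.264% after 15 h at D6 and no conversion in the 1275 and 2675 positions covered after 9 h in 4sU (adjusted p = 0.759, edgeR, with 0 covered positions in the remaining library). Mcm10 had 0, 0 and 2.22% there, with 79 and 72 positions covered in the first 2 libraries. Cdc6 had 0.391, 0 and 0%, and Pola1 was covered by 210 positions in 1 library. These values rest on few covered positions, and no direction was read from them.

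Decay half-lives were fitted as a single exponential to the catabolic rates, and kept where R squared was over 0.6 and every catabolic library of the state had covered T positions. At D0 10 of the 41 genes had one, with a median of 361 min, against 286 min over 1305 genes. From 0 and 9 h only these medians were 212.6 and 182.4 min, and with no minimum of R squared, over 36 of the 41 genes, 424.9 and 425.2 min. They were Cdc45 at 233 ± 44 min (SE), Dbf4 at 276 ± 54, Fen1 at 291 ± 66, Gmnn at 311 ± 63, Orc6 at 323 ± 56, Mcm3 at 399 ± 94, Mcm7 at 435.5 ± 93, Mcm4 at 439 ± 86, Rpa2 at 484 ± 75 and Mcm2 at 498 ± 82. The errors of neighbours in this order overlap, and the 4 MCM subunits lay among the 5 longest. From 0 and 9 h only this order changed. Mcm3 (206.9 min) and Mcm7 (218.3 min) then lay below Orc6 (239.2 min) and Cdc45 (316.3 min). At D6 5 genes had one, with a median of 218 min, against 239.5 min over 1150 genes. This order turned under 5 other settings, among them no minimum of R squared (334.4 and 324.1 min) and omission of D6 library 09 (268.8 and 226.2 min).

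Orc6, Dbf4, Mcm2 and Mcm4 were the 4 genes kept in both states, of 346 genes overall. Orc6 had 323 ± 56 min at D0 and 145 ± 53 min at D6, Dbf4 276 ± 54 and 218 ± 47 min, Mcm2 498 ± 82 and 342 ± 77 min, and Mcm4 439 ± 86 and 294 ± 99 min. All 4 were shorter at D6, as a description with no test, and the share among the 346 genes was not counted. The median over all genes was also lower at D6, at 239.5 min against 286 min at D0. Genes below the R squared minimum in both states went both ways. Orc2 was fitted at 437 and 756.5 min at D0 and D6, and Mcm5 at 669 and 289.5 min. Rfc4 was kept at D6 alone, at 197 ± 48 min. Cdc45 and Pold1 passed the R squared minimum at D6 and were not kept, since Cdc45 had 0 covered positions in 1 library and Pold1 in 2.

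Genes beside the 41 in the same pathways were counted from 4 lists written with earlier results of these data known. Without 4sU, edgeR called 1 of 35 other replication factors lower and 0 higher, 8 and 0 of 23 other nucleotide supply genes, 4 and 3 of 27 genes of E2F, RB and S phase entry control, and 2 and 0 of 21 genes of the S phase checkpoint and fork repair. After 15 h in 4sU the counts lower and higher were 2 and 0 of 33, 5 and 1 of 22, 3 and 3 of 26, and 2 and 0 of 21. Over all 8 assay and time points they were 22 and 0 of 35, 19 and 1 of 23, 12 and 5 of 28, and 17 and 0 of 22. Of all genes tested, 5.16% were called lower and 7.61% higher without 4sU. The shares were 6.84 and 7.66% after 15 h in 4sU, and 28.8 and 16.2% over all 8 points.

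The named genes of these lists are among those with the largest changes of the called. Without 4sU they were Clspn, the checkpoint adaptor claspin (log2 fold change −1.72), the folate enzyme Mthfd1 (−3.40), the pyrimidine enzyme Umps (−2.69), the dNTP hydrolase Samhd1 (−2.28), Cdk6 (−2.99), cyclin D3 (Ccnd3, −2.29) and Brca1 (−2.30), which acts in homologous recombination. The inhibitor Cdkn2c was also called, and higher (adjusted p = 0.0465, edgeR), with 0 reads in the D0 libraries and hence no fold change given. Cdk6, a kinase that phosphorylates RB, and Ccnd3, its partner, were called lower after 15 h in 4sU as well (log2 fold changes −3.73 and −1.99). Other large changes after 15 h were those of Pold2 (−1.75) and Top2a (−1.14) among replication factors, Tk2 (3.12), Atic (−2.94) and Cad (−2.13) in nucleotide supply, and E2f2 (3.83). Rb1, which had 0 reads at D0 there, did not pass after 15 h (adjusted p = 0.0587, edgeR). Over all 8 points the largest changes were those of Slbp (−3.36), Recql4 (−2.87) and Pole2 (−2.65) among replication factors, Mthfd1 (−3.47), Samhd1 (−3.15) and Atic (−2.76) in nucleotide supply, and Fanci (−4.06), Xrcc2 (−3.78) and Fancd2 (−3.71) in the checkpoint and repair list. In the E2F, RB and S phase entry list they were Cdk6 (−3.42), the inhibitor Cdkn1a (3.02) and E2f2 (2.69), so that this list held called genes in both directions.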

How the data were processed

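Whole-culture RNA of P19 cells was sequenced as 3′ end SLAM-seq libraries (QuantSeq 3′ FWD, 101 base single reads). The authors deposited 1 table per library, made with SLAMdunk 0.3.3 per the file headers on mm10, and each table lists, per RefSeq 3′ UTR, how many reads it had, how many T positions they covered and how many of these were read as C. These are raw counts. The conversion rates and CPM that the authors deposited beside them were not used, and CPM here is scaled to the reads on mRNA 3′ UTRs of each library.

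Each gene was represented by its mRNA transcript with most reads. Counts were tested with edgeR 4.0.16 (TMM, filterByExpr, quasi-likelihood test) in R 4.3.3, with Benjamini-Hochberg adjustment over all genes tested and a threshold of 0.05. Label was tested in the same way on conversions, with an offset of covered T times the median rate over genes of the library, for genes whose libraries averaged 1000 covered T or more. Promoter windows came from RefSeq (GRCm38.p6). DESeq2 1.42.0 and limma 3.58.1 served as alternatives, with other normalizations, filters, label offsets and left-out libraries, and the read and label tests and half-life fits were tested on simulated data. Python 3.11.15 with numpy 2.4.6, pandas 2.3.3, scipy 1.17.1 and matplotlib 3.10.9 made the summaries. Depth was 1489528 to 11677046 reads per library, and conversions limit label more than reads, since a gene with few covered T positions gives a rate from a few molecules; PCR duplicates are not independent molecules.

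The members and lists were chosen with earlier results of these data known. Values per library are given for the genes with the largest and smallest change in each role group without 4sU, for called genes, and for the 3 smallest p of each label test. Some called genes of the other pathway lists are counted but not reported here by name. The comparison over all 8 assay and time points and those of 9 h against 0 h after removal, and the settings without D0 libraries 26, 56 and 72 together, without 6 D6 libraries or without a time point, were added after the data were seen.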

Additional observations from a re-analysis of the deposited data

Results flagged for a closer look

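The summed reads of the 41 genes went in opposite directions in the chase. At 9 h after removal of 4sU the sum was 68.61% of its mean at removal at D6, with all 3 libraries lower (57.9 to 77.8%), and 106.4% at D0, with all 3 libraries higher (105.6 to 107.6%). The difference between these sums was not tested, and gene by gene edgeR called 0 of the 41 for the difference between the states, with 7 at an unadjusted p under 0.05. The D6 sum of neural progenitor markers was also lower at 9 h (1984.5 to 2249.9 CPM against 2902 to 3339), and its part in the difference was not tested.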

How the results depend on the processing

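No called change of the 41 genes turned its direction under any alternative run, but the order of the half-life medians of the 41 genes and of all genes did. Without 4sU, 14 genes were lower by DESeq2, and 1 to 10 with 1 library left out (1 without D6 library 37, 4 without D6 library 39 or D0 library 55). After 15 h in 4sU, 3 to 9 were lower with 1 library left out (3 without D6 library 07, 5 without 09, 6 without D0 library 25, 5 without 27); the smaller number of libraries is part of these settings. Over all 8 assay and time points 33 to 36 were lower in the 9 omissions of 1 library that were run, and 30 to 35 with 1 time point left out; the other single omissions were not run. For 9 h after removal at D6, 5 genes were lower by DESeq2, 2 with no filter on low counts, 3 without D0 libraries 26, 56 and 72, and 0 to 1 with 1 library left out (0 without 07, 09, 16 or 17); at D0 DESeq2 called 1 higher, and DESeq2 and no filter each called 1 lower for the difference between the states. The cause was not tested. Label left was lower in 7 genes at D0 and 20 at D6 when covered T alone was the offset, which compares with the starting rate and not with the median gene. Label over all genes also fell, to 29.1% of the 15 h rate at D0 and 18.6% at D6. At D6 limma on background-subtracted rates called 1 and DESeq2 called 2, and DESeq2 called 1 each for uptake at D6 and for its difference between the states. For counts of called genes under DESeq2 and the other alternative settings, the shares over all genes are not given here. With 1 library left out all 7 label comparisons kept 0. The median half-life at D0 was 259.3 min with the label's hours, 212.6 min from 0 and 9 h only and 297.4 to 366.1 min with 1 library left out; at D6 it was 163.3 min with the label's hours, 334.4 min with no minimum of R squared and 172.9 to 268.8 min with 1 library left out. At D6 the median of the 41 genes lay above that of all genes, and not below, with the label's hours (149.4 min over all genes), from 0 and 9 h only (174.2 and 170.6 min), with no minimum of R squared (324.1 min over all genes), and without library 08 (248.8 and 228.1 min) or 09 (268.8 and 226.2 min); at D0 the medians were 424.9 and 425.2 min with no minimum. Of the values of single genes, 923 kept their side of the threshold and 90 lost it with the same direction. No paired analysis was possible because the library numbers in the labels are unique to each library.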
